A study of Mus musculus with 14 samples.

Results

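The course examined is that of MEFs, fibroblasts taken from mouse embryos into primary culture, after retroviral transfer of Sox2, Klf4 and Oct4 (together SKO; Oct4 is encoded by Pou5f1) and growth without vitamin C. It comprises 6 of the 14 arrays of the series, chosen by the labels for virus, vitamin C and day. The late group holds the arrays of days 6, 8 and 10 and the early group those of days 3, 4 and 5, with 1 array per day. The other arrays were SKO cells of the same days kept with 50 µg/ml vitamin C (6 arrays) and MEFs with a virus for green fluorescent protein (GFP) on day 3, 1 array without vitamin C and 1 with it. All cells had been infected in a pair of rounds and, from day 2 after the last of them, grew in embryonic stem cell medium with serum, β-mercaptoethanol and leukaemia inhibitory factor, which the GFP cells share with the SKO cells. The labels name neither the strain, age or number of embryos nor a sort, so RNA came from whole cultures that may hold infected and uninfected cells. They do not say whether the days were separate infections, so every p-value below measures the scatter of these arrays around a course and not the variation between cultures.

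Reprogramming turns a differentiated cell into a pluripotent one. In fibroblasts it is known to begin with the loss of mesenchymal and contractile genes and the gain of epithelial ones, and to end, in few cells, with the activation of the cell's own pluripotency network, in which Nanog and Esrrb are late members. Without added Myc the process is slow, and vitamin C is known as an agent that makes it more efficient. GFP cells were measured on day 3 alone, so changes over the days cannot be told apart from those of time in culture and in the new medium.

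The 6 arrays had similar medians, 5.19 to 5.26 on the log2 scale. The first principal component of the 6 arrays held 41.4% of their variance and was -39.9, -5.21, -13.8, 11.9, 28.3 and 18.6 on days 3, 4, 5, 6, 8 and 10. It broadly followed the day, with days 4 and 5 and days 8 and 10 in swapped places. The second held 33.4% and was 0.66, -29.1, 16.8, -5.93, -15.5 and 33.1 on the same days. It set days 5 and 10 against days 4 and 8, with day 3 (0.66) and day 6 (-5.93) between them. This matches only in part the day-to-day alternation (days 3, 5 and 10 against days 4, 6 and 8) known from an earlier analysis of these data. The steps to days 4, 5, 6 and 10 each cross from 1 of these sets of days to the other. The size of such a single step cannot be told apart from the alternation. The part of the alternation in the results was not tested, but the total slope counts and those of 7 lists are also given within each set of days. These slope fits, and those with the set of days as a block, were added after the data were seen. Day 8 against day 3 had 756 genes at least 2-fold higher and 359 at least 2-fold lower, and day 10 against day 3 had 648 and 258. Day 8 against day 6 had only 24 and 23, the fewest of any 2 days.

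Late minus early, no gene of 19938 passed the test (limma, Benjamini-Hochberg adjusted p under 0.05; 0.0% called), although 2278 genes had an unadjusted p under 0.05. This test treats the change within each group of days as error. The late and early groups did not overlap in many genes: all 3 late arrays lay above all 3 early arrays in 1691 genes (8.48%) and below them in 1606 (8.05%). With a difference of at least 2-fold as well, 190 genes (0.953%) were higher and 25 (0.125%) lower in the late group. A straight trend over the days uses their spacing, and its slope per day differed from 0 in 515 genes (limma, adjusted p under 0.05), 389 that rose (1.95%) and 126 that fell (0.632%). At an unadjusted p under 0.05 the slope test had 2695 genes. "Rose" and "fell" below mean that a gene passed this slope test.

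Rising genes changed more than falling ones. The fitted change from day 3 to day 10 had a median size of 3.03-fold in the 389 genes that rose and 2.31-fold in the 126 that fell. It reached at least 4-fold in 116 genes that rose and 7 that fell. In the median gene that rose, 17.3% of the change between days 3 and 10 was present by day 4, 39.6% by day 5, 54.3% by day 6 and 72.4% by day 8. The genes that fell had a close schedule, 20.7%, 40.1%, 54.9% and 78.5%. The value went up at each of the 5 steps between days in 175 of the 389 genes, and down at each in 54 of the 126. Measured against the GFP array of day 3, 33 of the 389 rising genes were at least 2-fold higher and 20 at least 2-fold lower on day 3, and 329 were higher and 0 lower on day 10. Of the 126 falling genes 17 were at least 2-fold higher and 6 lower on day 3, and 1 was higher and 71 lower on day 10. These genes were chosen for a straight trend over the same arrays. The schedules, the step counts and the day 10 counts follow in large part from that choice. The share over all genes was not counted, and the GFP array is of day 3 only. The slope count rests on single days: without day 3 it was 96 higher and 7 lower, without day 10 it was 217 and 41, and without day 4 it was 205 and 37. Without day 6 it was 263 and 52, and 80 genes fell without day 5 and 72 without day 8. All 515 genes kept the sign of their slope in each of these. Within days 3, 5 and 10 the counts were 315 and 86, and within days 4, 6 and 8 they were 229 and 46.

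Of the transduced factors, Oct4 stood farthest above the GFP array. Pou5f1, the gene for Oct4, had log2 signals of 11.19, 12.18, 11.76, 12.42, 12.58 and 12.20 on days 3, 4, 5, 6, 8 and 10 in SKO cells without vitamin C, against 4.05 in GFP cells on day 3. All 6 days were far above the GFP array, and the slope did not pass (0.13 per day, limma adjusted p = 0.36). Klf4 had 8.37 to 9.28 over the 6 days, against 7.43 in GFP cells, and Sox2 had 5.14 to 5.85, against 4.28. Neither slope passed (limma adjusted p = 0.936 for Klf4 and 0.328 for Sox2). The array was not examined for whether its probes tell viral from cellular transcripts of these genes. Myc, which was not transduced, had 8.37 to 8.62, against 7.90 in GFP cells.

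The genes with the largest change of all were led by secreted proteins. Trh, the precursor of thyrotropin-releasing hormone, a gene also known to be high in embryonic stem cells, had 5.32, 6.62, 7.98, 9.06, 10.51 and 10.72 on days 3 to 10. It stepped up on every day, with a slope of 0.79 ± 0.086 (SE) per day, a fitted 45.2-fold change over the course (limma adjusted p = 0.00328). Lbp, a plasma protein that binds bacterial lipopolysaccharide, had 5.11, 6.39, 7.89, 8.90, 9.52 and 10.36. It also stepped up on every day, and its fitted change was 33.0-fold (adjusted p = 0.00414). Rnase1, a secreted ribonuclease, went through 4.79, 6.50, 7.95, 8.23, 8.49 and 9.58 (17.3-fold, adjusted p = 0.0154). Most of that change was present by day 5. Tac2, a tachykinin precursor, had the opposite timing, with 3.50, 3.30, 3.84, 4.55, 6.07 and 7.13 (16.7-fold, adjusted p = 0.00146). Its first 3 arrays lay close together and the 2 last steps held most of the change.

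Frem2, an extracellular matrix protein of epithelial basement membranes, had 4.86, 5.74, 7.07, 7.72, 8.46 and 8.96 (16.6-fold, limma adjusted p = 0.00414), and Necab1, a calcium-binding protein of neurons, had 5.35, 6.26, 7.78, 8.06, 8.91 and 9.55 (16.5-fold, adjusted p = 0.00414). Both stepped up on every day. The remaining genes among the 12 with the largest late minus early difference were Chrm2 (a muscarinic acetylcholine receptor), Dpp6 (a potassium channel subunit), Acsbg1 (an acyl-CoA synthetase), Steap4 (a metalloreductase), Mpzl2 (an epithelial adhesion protein) and Csn1s1 (an alpha casein of milk). The first 5 of these had fitted changes between 11.2-fold (Acsbg1) and 12.2-fold (Dpp6), and each rose. Of the 2 probes of Dpp6, 1 had a slope of the other sign. Csn1s1 had 4.55, 5.90, 6.87, 8.00, 8.57 and 7.77, and its slope did not pass (adjusted p = 0.0746). Its day 10 array lay below that of day 8.

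**Figure D1:**
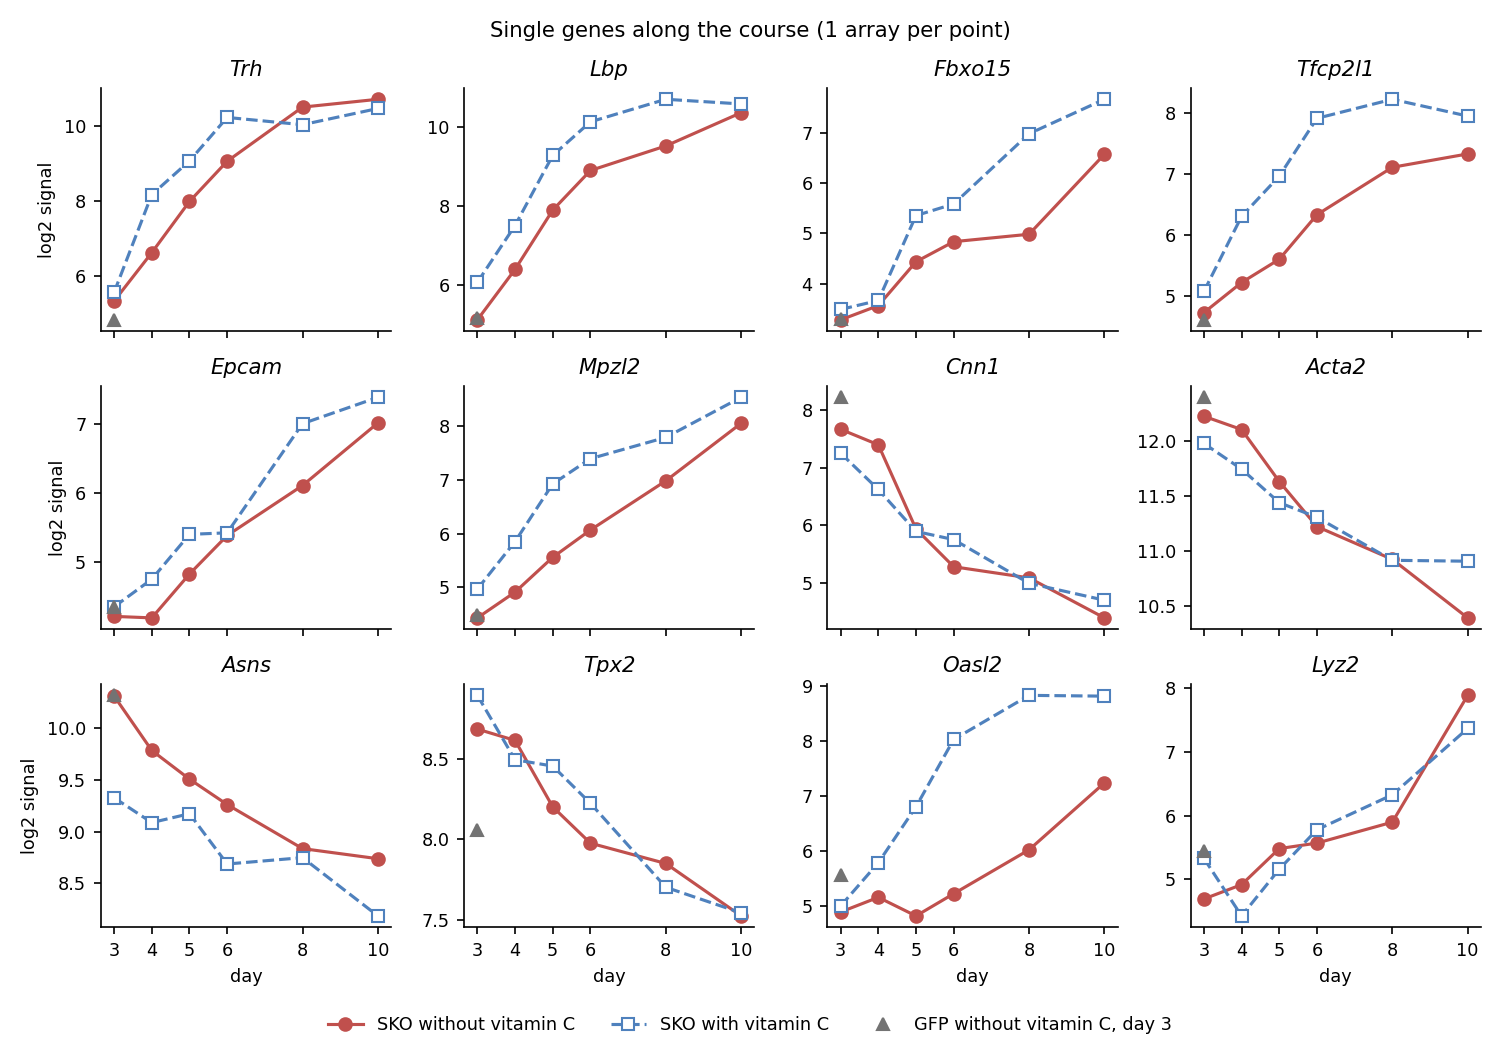
Log2 signal (vertical axis) by day (horizontal axis) for 12 genes in SKO cells without vitamin C (filled circles), SKO cells with vitamin C (open squares) and GFP cells without vitamin C on day 3 (triangle); each point is 1 array. Trh, Lbp, Fbxo15, Tfcp2l1, Epcam and Mpzl2 climb over most of the course without vitamin C, Cnn1, Acta2, Asns and Tpx2 decline, and Lyz2 and Oasl2 have their largest step at day 10.

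Pluripotency genes moved in part. Of 47 measured genes, 8 rose and none fell (17.0% against 1.95% of all genes), and the median slope was 0.05 per day, against -0.0026 over all genes. The members that rose were Trh, Slc7a3, Fbxo15, Tfcp2l1, Jam2, Tet2, Fgf4 and Kit. Fbxo15, a gene known to be bound by Oct4 and Sox2 and dispensable for pluripotency, had 3.28, 3.56, 4.44, 4.84, 4.98 and 6.58, against 3.30 in GFP cells on day 3. It started at the GFP level and stepped up on every day (0.44 ± 0.045 per day, 8.34-fold, limma adjusted p = 0.00267). Tfcp2l1, a transcription factor of the naive pluripotent state, had 4.72, 5.22, 5.60, 6.33, 7.11 and 7.33, against 4.61 in GFP cells. Every day lay above the one before it (0.39 ± 0.038 per day, 6.68-fold, adjusted p = 0.0021).

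Slc7a3, a transporter of cationic amino acids that stem cells express, had 6.78, 5.80, 6.22, 6.80, 7.84 and 9.58 (9.58-fold, limma adjusted p = 0.0237). It dipped on day 4 and took its largest step last. Tet2, an enzyme that oxidises methylated cytosine in DNA, had 5.86, 6.06, 6.82, 7.06, 7.13 and 7.69 and rose 3.37-fold (adjusted p = 0.0133). Jam2, a junctional adhesion molecule, rose 4.53-fold, Fgf4, a growth factor secreted by pluripotent cells, 2.79-fold and Kit, the stem cell factor receptor, 2.24-fold. Kit was level up to day 6, with 4.35 to 4.58, and had 4.93 on day 8 and 5.62 on day 10.

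The late members of the network did not pass the test. Nanog had 5.32, 5.35, 5.17, 5.46, 5.43 and 5.70 without vitamin C, against 5.32 in GFP cells on day 3. Its 3 late arrays lay just above its 3 early ones (slope 0.05 per day, limma adjusted p = 0.461). Zfp42, a marker of embryonic stem cells, had 3.99 to 5.09, against 4.74 in GFP cells (adjusted p = 0.501). Esrrb had 3.80 to 4.49, against 4.27, and Sall4 4.29 to 4.98, against 4.73 (adjusted p = 0.967 and 0.105); these 2 were picked after their values were seen. In bulk RNA a transcript in few cells and a low level in many cannot be told apart. Leaving out day 3 or day 4 left 4 pluripotency genes called, and leaving out any other day 6 to 8. There were 4 within days 3, 5 and 10 alone and 7 within days 4, 6 and 8 alone.

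Epithelial genes behaved alike. Of 38 measured, 7 rose and none fell (18.4% against 1.95%), with a median slope of 0.04 per day. Epcam, an adhesion molecule of epithelia and of pluripotent cells, had 4.22, 4.20, 4.83, 5.39, 6.11 and 7.01, against 4.35 in GFP cells on day 3. It was at the GFP level on days 3 and 4 and then climbed with every array (0.42 ± 0.031 per day, 7.79-fold, limma adjusted p = 0.00122). Mpzl2 had 4.43, 4.91, 5.56, 6.07, 6.98 and 8.05 (12.1-fold), with the smallest adjusted p of the genes named here, 0.00015. Spint2, an inhibitor of serine proteases on epithelial surfaces, had 5.98, 6.64, 7.09, 7.45, 7.86 and 8.16 (4.20-fold, adjusted p = 0.00671). St14, a membrane protease that Spint2 inhibits, had 5.05, 4.95, 4.63, 5.45, 5.86 and 6.24 (2.71-fold, adjusted p = 0.0428). Its 3 early days gave no increase. Ocln, the tight junction protein occludin, rose 4.30-fold, and Ehf, an epithelial transcription factor, 3.40-fold.

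E-cadherin was not among them. Cdh1, its gene, had 4.81, 5.26, 5.14, 5.67, 5.63 and 5.64 without vitamin C, against 4.20 in GFP cells on day 3. The late arrays were all above the early ones and almost equal to each other (slope 0.11 per day, limma adjusted p = 0.181). Keratins and the epithelial splicing and Grhl factors of the list did not pass either. Leaving out single days left 5 to 8 epithelial genes called, with 5 within days 3, 5 and 10 alone and 6 within days 4, 6 and 8 alone.

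Contractile genes of smooth muscle type were the list with the largest share of calls with all arrays and no block. Another list had a larger share with the alternation block (22 of 33, against 42 of 52 mitosis genes). With that block 588 of all 19938 genes fell. The same held without day 3 (2 of 33, against 5 of 38 epithelial genes). Without day 10, 5 of 33 contractile genes fell, while 3 of 21 imprinted growth genes rose and 1 fell. Within days 3, 5 and 10 it was 12 of 33, against 18 of 49 interferon genes. Of 33 measured, 15 fell and none rose (45.5% against 0.632% of all genes). The 3 late arrays lay below the 3 early ones in 17 of them (against 8.05% of all genes), and by at least 2-fold in 10 (against 0.125%). The median slope was -0.15 per day and the median late minus early difference -0.61, against -0.01 over all genes. These genes build and anchor actin stress fibres, and many are known targets of serum response factor, which binds a promoter element called the CArG box. In the RefSeq promoters of assembly GRCm38.p6 (250 bases before to 50 after the start of the gene), the box was found in 488 of 27025 genes (1.81%), searched on both strands. Among the contractile list it was found in 5 of the 26 genes with a promoter in the table (19.2%), and in 3 of the 12 that fell (25.0%). A match is a description of the sequence only. The 3 matches are shown because they are those of the falling genes, written along the strand of the gene with the box in capitals:
Acta1 (chr8:123894799-123894888, minus strand): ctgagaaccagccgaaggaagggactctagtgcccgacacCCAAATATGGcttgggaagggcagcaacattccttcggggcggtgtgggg
Cnn2 (chr10:79988504-79988593, plus strand): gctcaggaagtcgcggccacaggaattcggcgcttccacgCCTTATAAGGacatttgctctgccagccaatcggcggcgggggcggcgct
Myl9 (chr2:156775263-156775352, plus strand): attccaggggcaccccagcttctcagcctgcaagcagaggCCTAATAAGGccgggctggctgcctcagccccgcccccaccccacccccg

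The boxes end 63, 46 and 151 bases before the starts of Acta1, Cnn2 and Myl9. Acta1, skeletal muscle actin, had 7.64, 7.52, 6.70, 6.27, 6.26 and 5.53 (fell 4.18-fold, limma adjusted p = 0.00916). Cnn2, a calponin of non-muscle cells, fell 2.48-fold (adjusted p = 0.0258). Myl9, a myosin light chain, had 9.31, 9.69, 8.27, 7.90, 8.17 and 6.52 without vitamin C, against 10.35 in GFP cells on day 3 (fell 6.53-fold, adjusted p = 0.0209). Its large steps were those to day 5 and to day 10.

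Cnn1, smooth muscle calponin, had the steepest fall of all genes. Its values were 7.66, 7.39, 5.94, 5.28, 5.09 and 4.40 without vitamin C, against 8.21 in GFP cells on day 3. Each array lay below the one before it, with a slope of -0.47 ± 0.065 per day (9.70-fold, limma adjusted p = 0.00908). Tagln, the actin-binding protein transgelin, had 9.48, 9.40, 8.58, 7.91, 7.90 and 7.23 (4.88-fold, adjusted p = 0.00836). Acta2, smooth muscle actin, had 12.22, 12.10, 11.63, 11.22, 10.92 and 10.39 (3.66-fold, adjusted p = 0.00312). Both lay below their GFP values, 10.01 for Tagln and 12.39 for Acta2, on every day. Myh11, smooth muscle myosin, had 6.13, 5.91, 5.23, 4.70, 4.77 and 4.29, against 7.10 in GFP cells (3.49-fold, adjusted p = 0.0174).

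Tpm2, a tropomyosin, fell 3.73-fold, Tspan2, a tetraspanin, 3.68-fold and Pdlim1, an adaptor on actin fibres, 4.05-fold. Des, Tpm1, Actg2, Cald1 and Flna, which encode desmin, a tropomyosin, enteric actin, caldesmon and filamin, fell between 2.02-fold and 3.50-fold. In the median of the 15 genes, 3.65% of the change was present by day 4 and 44.6% by day 5, so the step from day 4 to day 5 carried much of it. That step crosses between the alternation sets, whose part was not tested. Without the day 3 array 2 of the 33 genes were called, and without the day 10 array 5. Within days 3, 5 and 10 alone 12 fell, and within days 4, 6 and 8 alone 11.

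**Figure D2:**
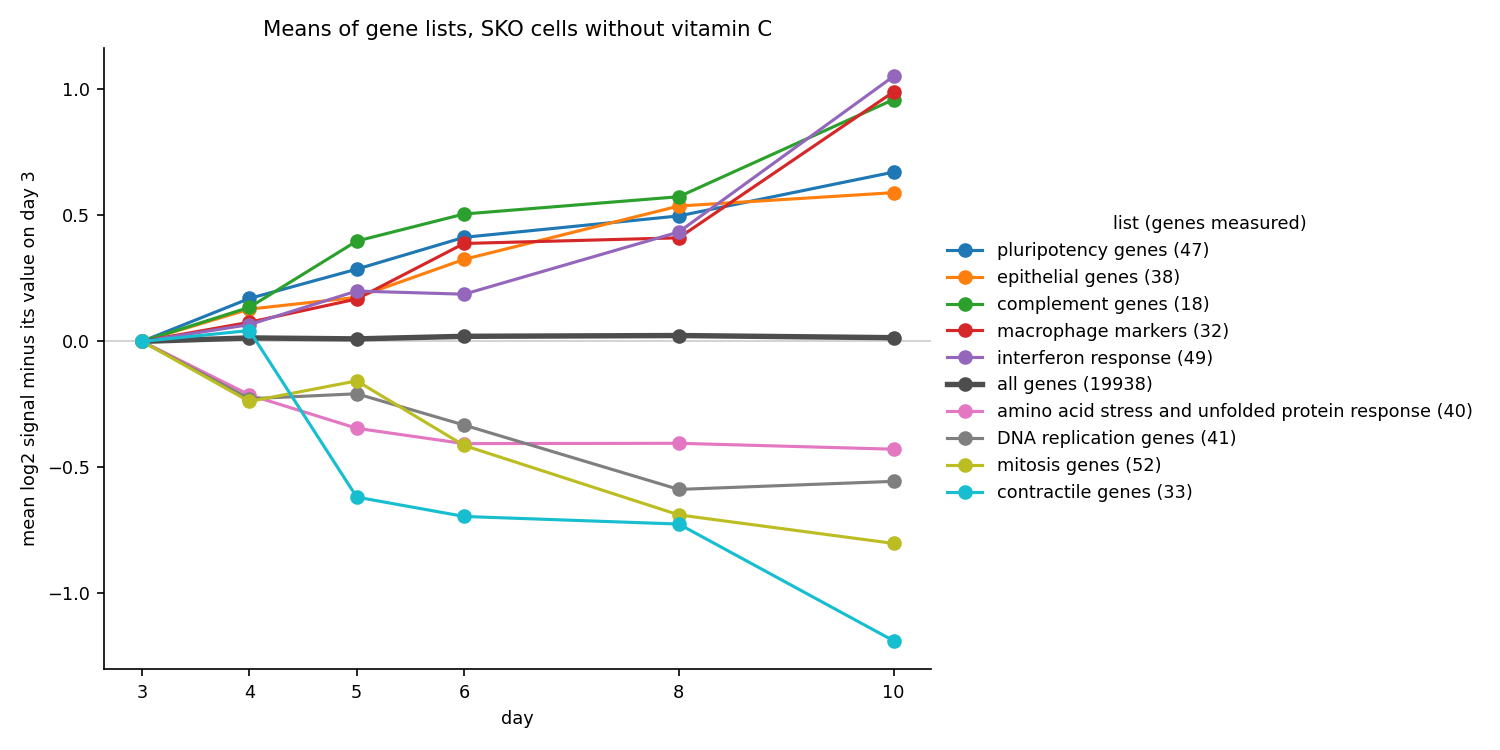
Mean log2 signal of 9 gene lists and of all genes (vertical axis), as the difference from the mean on day 3, by day (horizontal axis), in the 6 arrays of SKO cells without vitamin C. The contractile mean stands 1.19 lower on day 10 than on day 3, its largest step being that to day 5, while the interferon and macrophage means take their largest step from day 8 to day 10 and the mean of all genes hardly moves (0.01).

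Markers of fibroblast identity behaved otherwise. None of the 9 markers Thy1, Col1a1, Col1a2, Col3a1, Vim, Pdgfra, Prrx1, Twist1 and S100a4 passed the slope test, and their median slope was 0.0037 per day. Thy1, the surface antigen used to sort fibroblasts, had 8.74, 9.53, 8.60, 8.97, 9.78 and 8.61 without vitamin C, against 10.25 in GFP cells. It was below the GFP array on every day and alternated from day to day. Vim, the intermediate filament vimentin, had 11.59 to 11.97 over the 6 days, against 11.67 in GFP cells, and Col1a1 had 11.64 to 12.55, against 12.88. In the list of mesenchymal regulators 1 of 35 genes rose (2.86% against 1.95%) and 1 fell (2.86% against 0.632%), shares that are single genes. Cdh2, N-cadherin, had 8.40, 8.36, 7.83, 7.79, 7.68 and 7.16 (fell 2.27-fold, limma adjusted p = 0.0237). Tgfbr2, a receptor of TGF-beta, had 8.05, 8.39, 8.44, 8.68, 8.94 and 9.12 and rose 2.04-fold (adjusted p = 0.0258). Its values without vitamin C were below the 9.04 of GFP cells up to day 8. Snai1, Snai2 and Zeb1, repressors of E-cadherin, did not pass (adjusted p = 0.783, 0.196 and 0.945). The late arrays of Snai2 had 7.25 to 7.34 and the early ones 7.63 to 7.81.

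Of 38 measured collagen and matrix genes 3 rose (7.89% against 1.95%) and 2 fell (5.26% against 0.632%). Dcn, the proteoglycan decorin, had 8.83, 9.15, 10.15, 10.44, 10.23 and 10.99 (3.86-fold, limma adjusted p = 0.0302), and Eln, elastin, had 6.81, 7.24, 7.18, 8.01, 8.36 and 8.53 (3.48-fold, adjusted p = 0.0102). Dpt, dermatopontin, rose 2.64-fold, while Col12a1, a fibril-associated collagen chain, fell 2.09-fold and Tnc, tenascin, 2.52-fold. Without the day 3 array none of these genes was called. Among enzymes that modify collagen, 2 of 20 fell (10.0% against 0.632%), the lysyl oxidase Lox (2.05-fold) and the prolyl hydroxylase subunit P4ha2 (2.51-fold). Mmp3, the metalloproteinase stromelysin, had 4.19, 3.92, 5.56, 6.08, 5.90 and 7.54 and rose 9.83-fold (adjusted p = 0.0118), with its large steps at days 5 and 10. Of the 16 metalloproteinases and inhibitors, Mmp23 fell 1.99-fold and no other passed. So 1 rose (6.25% against 1.95%) and 1 fell (6.25% against 0.632%), shares that are single genes.

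Some genes that make amino acids and one-carbon units fell. Of 40 measured genes of amino acid stress and the unfolded protein response, 5 fell (12.5% against 0.632%) and 2 rose (5.0% against 1.95%). The 5 that fell serve the making of asparagine (Asns), of serine (Phgdh and Psat1) and of one-carbon units in mitochondria (Mthfd2 and Aldh1l2), and are known targets of the stress factor Atf4. Asns had 10.31, 9.78, 9.51, 9.26, 8.84 and 8.74 without vitamin C, against 10.32 in GFP cells (fell 2.87-fold, limma adjusted p = 0.0133). Phgdh had 8.29, 7.66, 7.30, 6.92, 6.91 and 6.47 (3.05-fold, adjusted p = 0.0208). Aldh1l2 had 7.40, 6.59, 5.95, 5.54, 5.35 and 5.21, against 8.33 in GFP cells (4.04-fold, adjusted p = 0.0307). All 3 went down at every step, the first steps being the largest. The 2 that rose were transporters, Slc7a3 and the cystine carrier Slc7a11 (2.28-fold, adjusted p = 0.0413). Without the day 3 array no gene of the list was called as lower, and without day 4 it was 2. On the rising side 0 or 1 gene was called with each day left out, with the logarithm of the day, with median centring and with quantile normalization.

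Genes of cell division had falling calls that depend on every array. All 52 mitosis genes had a negative slope (against 10471 of all 19938 genes), and 13 of them fell (25.0% against 0.632%). The 3 late arrays lay below the 3 early ones in 36 of the 52 (against 8.05% of all genes). The median slope of the 52 genes was -0.12 per day. Tpx2, a spindle assembly factor, had 8.68, 8.61, 8.20, 7.98, 7.85 and 7.53 without vitamin C, against 8.06 in GFP cells (2.25-fold, limma adjusted p = 0.0196). Cdca8, a subunit of the chromosomal passenger complex, had 6.75, 6.46, 6.44, 6.07, 5.85 and 5.54, against 5.90 (2.26-fold, adjusted p = 0.0142). Both stood above the GFP array at first and below it at the end. Bub1, a spindle checkpoint kinase, fell 2.37-fold and Prc1, a protein of the central spindle, 2.25-fold. Without the day 3 array or without the day 10 array 0 of the 52 genes were called (limma), without day 4 it was 3, and without day 5, 6 or 8 it was 4 each. Within days 3, 5 and 10 alone 6 were called, within days 4, 6 and 8 alone 0, and with the alternation set of each day as a block 42. That block raised the background too, to 588 falling and 946 rising of all 19938 genes. The CCAAT box, read on both strands, was found in the promoters of 32 of 44 mitosis genes (72.7%) and of 6 of the 10 that fell (60.0%), against 41.1% of all genes.

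The mean of the mitosis list was 7.56, 7.32, 7.40, 7.15, 6.87 and 6.76, so that the GFP mean of 6.69 was nearly reached on day 10. Mki67, a marker of cycling cells, had 8.37, 8.47, 8.47, 8.20, 8.06 and 7.76, against 7.49 in GFP cells (adjusted p = 0.115). All 41 DNA replication genes had a negative slope too (against 10471 of all 19938 genes). Only Chaf1b, a chromatin assembly factor subunit, fell (1.84-fold, limma adjusted p = 0.0498), which is 2.44% against 0.632%. In 14 of the 41 the late arrays lay below the early ones (against 8.05% of all genes). With the block 11 of the 41 fell, against 588 of all 19938 genes. Among inhibitors of the cycle and D cyclins 1 of 15 rose (6.67% against 1.95%), a share that is a single gene. It was Cdkn1c, with 7.63, 7.98, 8.69, 9.00, 9.10 and 9.24 (2.97-fold, limma adjusted p = 0.0366), against 9.00 in GFP cells. Cdkn2b, an inhibitor of the cycle, had 7.79 on day 3 and 6.88 on day 10 and did not pass (adjusted p = 0.0802), and Cdkn2a had 6.03 to 6.63 (adjusted p = 0.873). Of 34 p53 target genes, Gtse1, a regulator of the cycle, fell 2.23-fold (2.94% against 0.632%, a single gene) and no other passed. With the logarithm of the day 5 of them fell and 1 rose, against 192 and 499 of all 19938 genes. With the block 9 fell and 2 rose, against 588 and 946 of all genes.

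**Figure D3:**
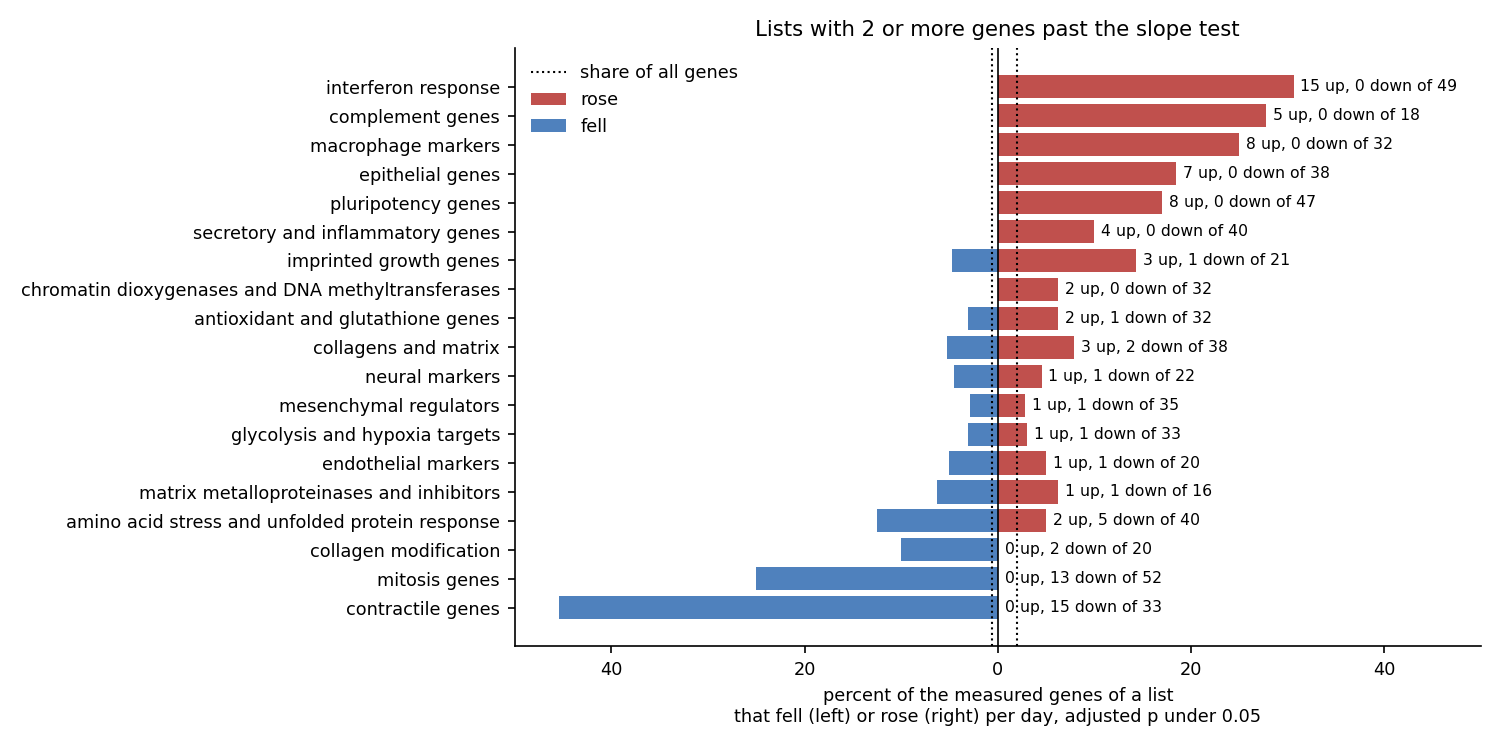
Share of the measured genes of a list (horizontal axis, percent) that fell (blue, to the left) or rose (red, to the right) per day, for lists with at least 2 genes past the slope test (rows), with counts beside the bars. Dotted lines mark the shares of all 19938 genes, 0.632% falling and 1.95% rising; the contractile list (15 of 33 down) and the interferon list (15 of 49 up) stand farthest from them.

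The response to interferon came late. Interferon-stimulated genes encode antiviral proteins switched on by factors that bind an element called the ISRE. Of 49 measured, 15 rose and none fell (30.6% against 1.95%), with a median slope of 0.12 per day. The ISRE core, GAAA and GAAA with 2 bases of any kind between them, was found, on either strand, in 1079 of 27025 genes with a RefSeq promoter (3.99%), in 17 of 36 genes of the list (47.2%) and in 4 of the 9 that rose and had a promoter in the table (44.4%). Those of the 4 rising genes are shown along the strand of the gene, with the core or its complement in capitals; in Gbp3 a pair of matches overlaps:
Ifit1 (chr19:34640745-34640853, plus strand): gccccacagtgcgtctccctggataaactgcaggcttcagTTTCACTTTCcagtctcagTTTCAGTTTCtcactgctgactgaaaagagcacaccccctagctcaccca
Gbp3 (chr3:142559959-142560043, plus strand): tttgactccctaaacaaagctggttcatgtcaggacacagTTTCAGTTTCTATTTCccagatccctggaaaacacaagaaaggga
Gbp7 (chr3:142530243-142530332, plus strand): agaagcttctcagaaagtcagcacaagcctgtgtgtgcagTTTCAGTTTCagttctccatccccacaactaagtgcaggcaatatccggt
Ifi203 (chr1:173942493-173942567, minus strand): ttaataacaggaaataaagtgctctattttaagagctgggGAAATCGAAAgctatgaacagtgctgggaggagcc

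Ifit1, an inhibitor of foreign RNA translation, had 4.60, 4.35, 5.10, 4.76, 5.09 and 6.74 without vitamin C, against 5.95 in GFP cells on day 3 (rose 3.89-fold, limma adjusted p = 0.0479). It lay below the GFP array until day 8 and above it on day 10. Gbp3 and Gbp7, guanylate-binding proteins, had 5.40 and 6.63 on day 8 and 7.27 and 7.82 on day 10, and rose 4.99-fold and 4.27-fold (adjusted p = 0.0287 and 0.0088). Oasl2, of the oligoadenylate synthetase family, had 4.89, 5.15, 4.81, 5.22, 6.02 and 7.23 (4.93-fold, adjusted p = 0.0134). Oas2, an oligoadenylate synthetase, had 4.51, 4.35, 4.94, 5.03, 5.98 and 6.93 (5.96-fold, adjusted p = 0.00255). Both were level until day 6 and higher on the 2 last days. Ifi203, a nuclear protein of the interferon-inducible p200 family, had 4.50, 5.41, 6.11, 5.77, 6.48 and 7.66 (6.54-fold, adjusted p = 0.00588), with a dip on day 6. Irf7, a transcription factor of the response, had 4.94, 5.66, 5.19, 5.81, 6.41 and 6.66 (3.20-fold, adjusted p = 0.017).

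The weight of day 10 was general. In the median interferon gene that rose, 51.5% of the change was present by day 8, against 72.4% over all rising genes. Of the 49 list members 42 were higher on day 10 than on day 8, against 9770 of all 19938 genes. The step from day 8 to day 10 crosses between the alternation sets, whose part was not tested. The mean of the list was 5.08, 5.14, 5.28, 5.26, 5.51 and 6.13, against 5.42 in GFP cells. Without the day 10 array 3 genes were called, without day 3 it was 5, without day 4 it was 9 and without day 8 it was 18. Within days 3, 5 and 10 alone it was 18, and within days 4, 6 and 8 alone it was 3. Of 18 genes of antigen presentation, which interferon also induces, none passed, among them the transporter subunit Tap1 (5.78 to 6.21, against 6.42 in GFP cells) and B2m, the light chain of class I molecules (10.88 to 11.25, against 11.19). Tap1 and B2m were picked after their values were seen.

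Macrophage markers moved on the same day. Of 32 measured markers 8 rose and none fell (25.0% against 1.95%), and the mean of the list was 4.21, 4.28, 4.38, 4.60, 4.62 and 5.20, against 4.36 in GFP cells. Lyz2, lysozyme, had 4.69, 4.91, 5.48, 5.57, 5.90 and 7.89 (7.36-fold, limma adjusted p = 0.00821), and Mrc1, the mannose receptor, had 4.29, 4.57, 4.69, 5.44, 5.26 and 7.51 (7.23-fold, adjusted p = 0.016). In both, the step from day 8 to day 10 was larger than all others together. Fcgr2b, an inhibitory Fc receptor, was more even, with 3.64, 4.36, 4.86, 5.41, 5.69 and 6.60 (6.65-fold, adjusted p = 0.00206). Laptm5, a lysosomal protein of blood cells, had 5.38, 6.15, 6.39, 7.16, 7.66 and 7.33 (4.07-fold, adjusted p = 0.0345).

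Some defining macrophage genes, though not Spi1, were higher on day 10 without passing the test. Adgre1 (F4/80) had 3.54 to 4.11 up to day 8 and 5.25 on day 10 (limma adjusted p = 0.0995), Csf1r, the receptor of macrophage colony-stimulating factor, had 4.47 to 4.72 and then 5.31 (adjusted p = 0.152), and Ptprc (CD45), found on all white blood cells, had 3.63 to 4.13 and then 4.70 (adjusted p = 0.159). Spi1, a factor of the macrophage lineage, had 3.64 to 4.17 on all days. These 4 were chosen after their values were seen. Of 32 markers 27 were higher on day 10 than on day 8, against 9770 of all 19938 genes. The step between those days crosses between the alternation sets here too. More macrophages in the day 10 culture and more of these transcripts per cell cannot be told apart in bulk RNA, and the part of these markers in the interferon and complement results was not tested. Without day 3 or without day 10, 3 markers were called, without day 4 it was 4 and without day 6 it was 5. The count was 8 within days 3, 5 and 10 alone, and within days 4, 6 and 8 alone it was 4.

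Complement genes rose in 5 of 18 cases (27.8% against 1.95%). Cd55, a membrane inhibitor of complement, had 6.62, 7.19, 8.12, 8.54, 8.38 and 8.81 without vitamin C, against 3.87 in GFP cells on day 3 (3.97-fold over the course, limma adjusted p = 0.0426). It was far above the GFP array from the start. Serping1, the inhibitor of C1, had 7.54, 8.51, 9.03, 9.22, 9.36 and 9.69 (3.51-fold, adjusted p = 0.039) and took its large steps early. Clu, the chaperone clusterin, rose 3.13-fold, Cd59a, a further membrane inhibitor, 5.32-fold and Cfb, a factor of the alternative pathway, 3.08-fold. Cfb had 4.72 to 5.46 up to day 8 and 6.58 on day 10. Without day 3 or without day 10, 1 complement gene was called, and without day 4 it was 2. Within days 3, 5 and 10 alone it was 3, and within days 4, 6 and 8 alone it was 4. Of 40 secretory and inflammatory genes 4 rose (10.0% against 1.95%), Lbp, the acute phase protein Saa3 (3.98-fold) and the chemokines Ccl8 (3.97-fold) and Ccl11 (3.73-fold), the last 3 with their largest step at day 10. Without day 10, 1 of the 4 genes was called.

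**Figure D4:**
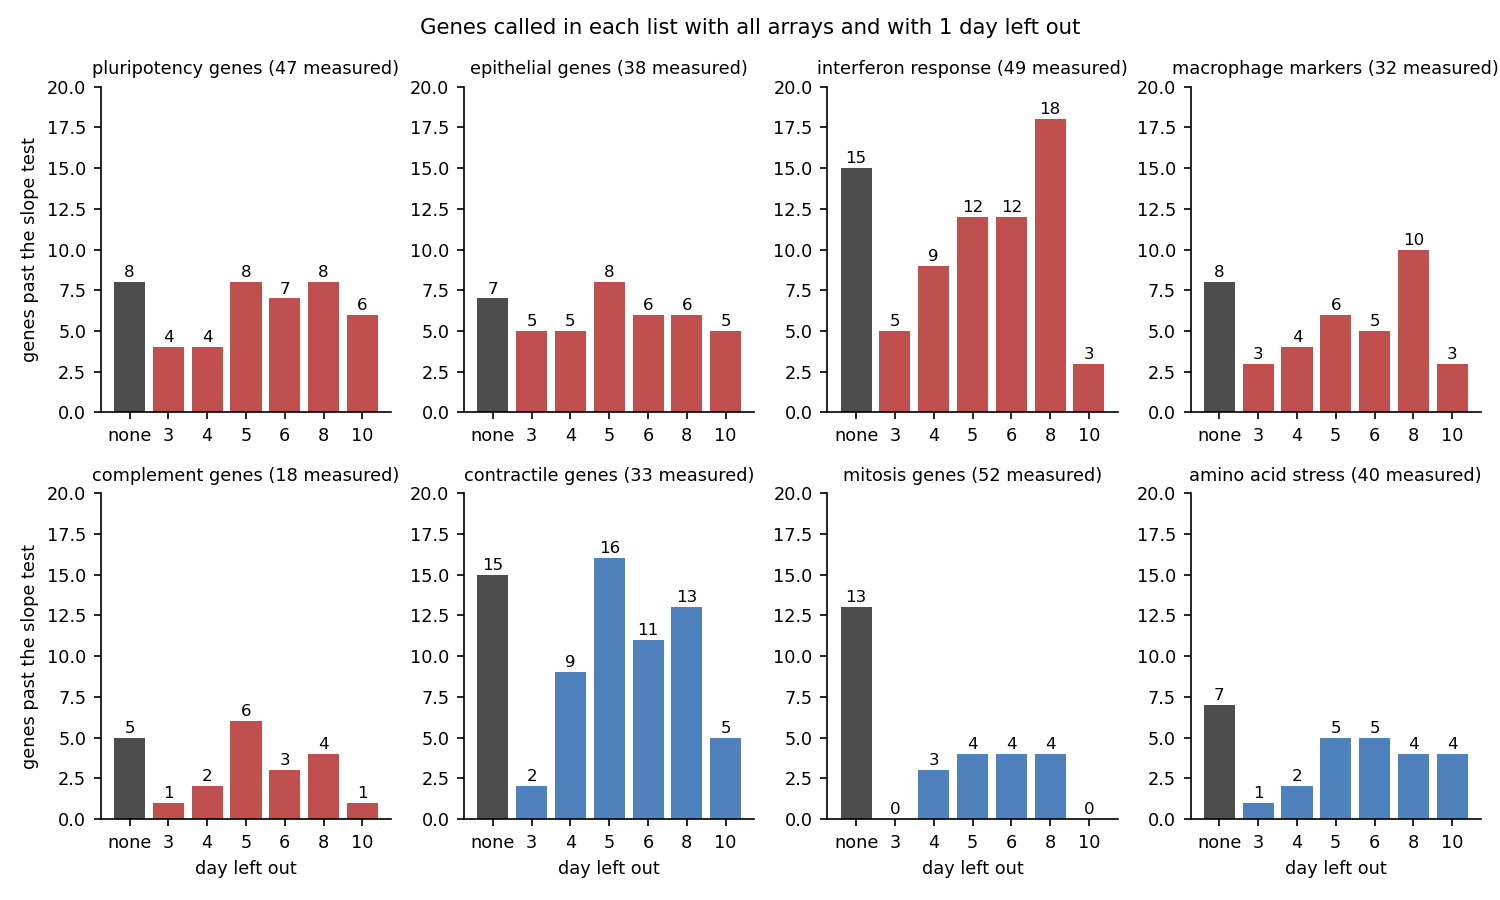
Number of genes past the slope test (vertical axis) in 8 lists with all 6 arrays (dark bar) and with the array of 1 day left out (horizontal axis); red bars mark lists whose calls are mostly rising and blue bars lists whose calls are mostly falling. The mitosis list has 13 calls with all arrays and 0 without day 3 or day 10, the interferon list 15 and 3 without day 10, while the pluripotency list has 4 to 8 calls with a day left out.

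Other cell types and pathways gave few calls. Their shares are to be read beside the 1.95% of all genes that rose and the 0.632% that fell. A call of 1 gene in a list is a single gene and not a result about the list. None of 19 lymphocyte, 22 skeletal muscle and 9 erythroid markers passed, and neither did any of 26 genes of cholesterol and fatty acid synthesis, 31 proteasome subunits, 37 Hox genes or 11 housekeeping genes. All 31 proteasome subunits had a negative slope (against 10471 of all 19938 genes), with a median of -0.04 per day. Of 20 endothelial markers, the angiopoietin receptor Tek rose, with 7.08, 7.24, 8.06, 8.18, 8.22 and 9.11, against 4.49 in GFP cells (3.66-fold, limma adjusted p = 0.0116), and Flt4 fell 2.24-fold. Of 22 neural markers, the neurofilament Nefl rose 3.96-fold (1 gene, 4.55% of the list) and Map2, a protein of dendritic microtubules, fell 2.31-fold (also 4.55%). Lpl, lipoprotein lipase, was the only one of 19 adipocyte markers to rise (3.86-fold, adjusted p = 0.00328). Aldoc, an aldolase of glycolysis, rose 4.27-fold, and apart from P4ha2 no other of 33 genes of glycolysis and hypoxia passed.

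Of 32 antioxidant and glutathione genes, Slc7a11 and the mitochondrial superoxide dismutase Sod2 (2.21-fold) rose (6.25% against 1.95%). Me1, malic enzyme, fell 2.02-fold (3.125% against 0.632%). Among chromatin enzymes, Tet2 and the histone demethylase Kdm7a (2.79-fold, limma adjusted p = 0.0125) rose (6.25% against 1.95%) and the other 30 did not pass. Of 21 imprinted growth genes 3 rose (14.3% against 1.95%), Dlk1, Dcn and Cdkn1c, and Slc38a4, an amino acid transporter, fell 3.86-fold (adjusted p = 0.00938). Dlk1, a membrane ligand related to those of Notch, had 6.95, 7.55, 7.04, 8.07, 8.78 and 8.72 (3.86-fold, adjusted p = 0.0258), all below the 9.12 of GFP cells. Of 31 genes of BMP and TGF-beta, Grem1, an antagonist of BMP, fell 2.53-fold (3.23% against 0.632%, a single gene). Falling genes outside the lists included Cav1, the main protein of caveolae, with 9.16, 8.53, 8.36, 7.61, 7.51 and 7.39 (3.28-fold, adjusted p = 0.0258), Lrch2 (3.34-fold) and Anxa10, an annexin (4.20-fold). Anxa10 had 5.97 on day 3 and 3.59 on day 10 without vitamin C, against 2.83 in GFP cells. Cd80, a costimulatory ligand and target of p53, was lower by 1.14 in the late group without passing either test (adjusted p = 0.143 for late minus early and 0.0997 for the slope).

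The same days with vitamin C gave a course on separate arrays. There 403 genes rose (2.02%) and 115 fell (0.577%) by the same slope test. Of the 389 genes that rose without vitamin C, 213 (54.8%) also rose with it, which is 52.9% of the list with vitamin C, and 384 had the same sign. Of the 126 that fell, 41 (32.5%, and 35.7% of the list with vitamin C) also fell with it, and 123 had the same sign. The days are the same in both arms, so a disturbance common to a day would act on both. The share of all genes with the same sign in both arms was not counted. The difference between the courses in late minus early, without minus with vitamin C, was not called in any gene (limma, day as a block; 0.0%), with 1627 genes at an unadjusted p under 0.05. The difference of the slopes, a test added after the data were seen, was called in 7 genes (0.0351%).

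Of the lists above, the interferon genes differed most in count, with 15 of 49 rising without vitamin C and 33 with it. Their median slope was 0.12 per day without vitamin C and 0.28 with it. The slope was smaller without vitamin C in 47 of the 49 genes (against 9539 of all 19938 genes). No single member passed the test of the difference of slopes (lowest limma adjusted p = 0.0718). The list mean on day 8 was 5.51 without vitamin C and 7.01 with it, and on day 10 it was 6.13 without and 7.05 with. Nanog reached 5.70 on day 10 without vitamin C and 7.35 with it; its slope passed with vitamin C (0.26 per day, adjusted p = 0.0169) and not without. The test of that difference missed the threshold (adjusted p = 0.218). Contractile genes fell in 15 cases without vitamin C and 11 with it, mitosis genes in 13 and 9, and macrophage markers rose in 8 and 10, with no member of these lists past the test of the difference.

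**Figure D5:**
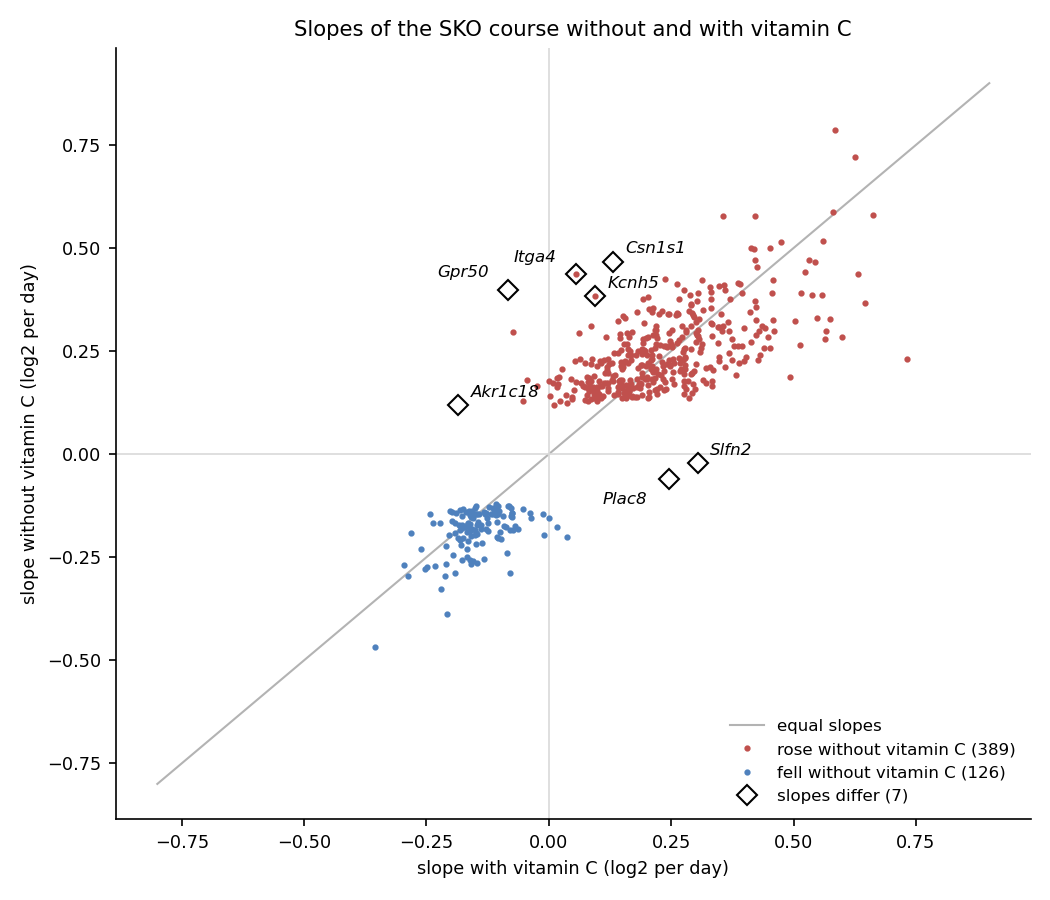
Slope per day (log2) without vitamin C (vertical axis) against the slope with vitamin C (horizontal axis) for the 389 genes that rose (red) and the 126 that fell (blue) without vitamin C; the line marks equal slopes and diamonds the 7 genes whose slopes differed by the added test. Most points share the sign of both slopes, 384 of 389 and 123 of 126, and the share over all genes was not counted.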

How the data were processed

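Per the submitters' processing notes the authors used RMA and Partek, with no version stated. The deposited values, 1 for each probe on each array, were taken as log2 signals from their range. Per the labels, 100 ng of total RNA was labelled per array. Of 28853 probes, 21789 had 1 gene symbol, 1621 several and 5443 none listed. A gene was represented by its brightest probe, which gave 19938 genes (999 with several probes), and 19919 were found in the RefSeq table of GRCm38.p6. Values were used as deposited. Tests were limma 3.58.1 fits in R 4.3.3 (lmFit and eBayes, Benjamini-Hochberg over all genes, threshold 0.05): late minus early and slope per day on 6 arrays (4 residual degrees of freedom), and the difference between courses on 12 SKO arrays with the day as a block (4). Fits were tested on simulated data. The 33 lists (934 of 1004 entries measured), the named genes and the tests were chosen with earlier results of these data known. Named were the 12 largest late minus early differences and the 6 largest slopes per direction, up to 4 members per list with non-overlapping late and early arrays and a fixed set; clone names and predicted genes were counted only. Other members that are named passed the slope test or are said to have been picked later. The number of arrays limits the precision. Figures used matplotlib.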

Additional observations from a re-analysis of the deposited data

Results flagged for a closer look

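The slope per day without vitamin C differed from that with vitamin C in 7 genes (limma, difference of slopes, a test added after the data were seen), each on 1 array per day and arm. The difference, without minus with, was 0.482 ± 0.063 (SE) in Gpr50, an orphan receptor related to melatonin receptors (adjusted p = 0.0303). Gpr50 had 5.79, 7.20, 8.00, 8.43, 9.50 and 8.57 without vitamin C on days 3 to 10, against 6.04, 6.77, 7.05, 7.30, 6.33 and 5.80 with it. The arms were close on day 3 and apart on days 8 and 10. Itga4, an integrin subunit, differed by 0.380 (adjusted p = 0.00823), with 9.85 on day 10 without vitamin C and 8.62 with it. The difference was 0.336 in Csn1s1, 0.289 in Kcnh5, a potassium channel, and 0.304 in Akr1c18, a steroid dehydrogenase (adjusted p = 0.0303, 0.0303 and 0.0355). All 5 ended higher on day 10 without vitamin C. Up to day 8, however, Akr1c18 was higher with vitamin C (10.28 on day 3, against 8.87 without it). Itga4 was higher with it up to day 6 (7.71 on day 3, against 6.44 without it). Gpr50, Csn1s1 and Kcnh5 were lower with it from day 4 on. Plac8 differed by -0.307 and Slfn2, of the Schlafen family, by -0.326 (adjusted p = 0.0303 each). On day 10 Plac8 had 4.46 without vitamin C and 6.37 with it, and Slfn2 had 5.13 without and 6.71 with.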

How the results depend on the processing

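Late minus early gave 67 higher and 11 lower genes without day 5 (0 in each other day left out, so 0 to 67 and 0 to 11), 106 and 26 with the alternation set as a block, and 292 and 92 within days 4, 6 and 8. The slope gave 946 higher and 588 lower genes with the alternation set as a block, 229 and 46 within days 4, 6 and 8, and 192 lower with the logarithm of the day. Slope fits with the block, within sets of days and with quantile normalization were added after the data were seen. The block is a pattern of these same arrays, so its larger counts are no separate support. With each day left out the slope without the block gave 96 to 333 higher and 7 to 80 lower genes. The difference between the courses in late minus early gave 0 to 1 genes with a day left out (1 without day 6), and as slopes, added after the data were seen, 7. The causes were not tested. With 1 array per day, curvature of a course and array error are not separated, and dim probes limit what can be seen of low genes.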
